A study of Mus musculus with 6 samples.

Results

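The chitinase and chitinase-like family was followed in mouse lung endothelial cells made to overexpress the adhesion molecule L1CAM. The family was taken by gene name as Chil5, Chil3, Chil4, Chil1, Chia1 and Chit1, and all 6 genes were found among the 19938 genes tested. Each gene had 1 probe set of its own, and 0 probe sets were shared between a family gene and another gene, so no choice between probe sets had to be made. The family was chosen by gene name once the difference of Chil5 between the groups was known, and probe sets were to be selected on their mean over the 6 arrays. The tested cells had been stably transfected with the pcDNA3.1/Hygro(-) vector carrying full-length mouse L1CAM (3 arrays), and the control cells with the empty vector (3 arrays). Both groups were lung-derived endothelial cells of C57BL/6 background, grown for 4 days to confluence in medium with 20% serum. The labels describe biological replicates of independent experiments and tell apart 1 transfectant in each group, without stating whether it was a clone or a pool. The p-values therefore measure the spread between these replicates, and an effect of L1CAM and a difference between the transfectants cannot be told apart.

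Chitinases are secreted enzymes of glycosyl hydrolase family 18 that cut chitin, the polymer of N-acetylglucosamine in fungal walls, insect cuticle and mites. Mice keep active enzymes, among them Chit1 (chitotriosidase) and Chia1 (acidic mammalian chitinase, of lung and stomach). They also have a group of chitinase-like proteins that hold the sugar-binding fold but have lost the catalytic activity. Chil1, Chil3 and Chil4 belong to that group and are known from the lung mainly as products of macrophages, neutrophils and airway epithelium in type 2 inflammation, where IL-13 and STAT6 induce several of them. Endothelial cells are not among the sources these genes are best known for.

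Chil5, Chia1, Chil3 and Chil4 lie on chromosome 3, in that order in the RefSeq gene table, with the further relative Chil6 after Chil4. Chil1 and Chit1 lie on chromosome 1. The RefSeq promoter windows of the chromosome 3 genes (GRCm38.p6, 250 bases before and 50 bases after the annotated start, 5′ to 3′ on the gene's strand) are printed because these genes are paralogs in 1 cluster, of which Chil5 differed between the groups and the others did not pass the test. The windows are chr3:106032846-106033145 on the minus strand for Chil5, chr3:106167515-106167814 on the minus strand for Chil3, chr3:106219430-106219729 on the minus strand for Chil4 and chr3:106113132-106113431 on the plus strand for Chia1. Capitals mark the longest stretch common to the 4 windows and, where it runs into that stretch, a TATAAA match.
Chil5: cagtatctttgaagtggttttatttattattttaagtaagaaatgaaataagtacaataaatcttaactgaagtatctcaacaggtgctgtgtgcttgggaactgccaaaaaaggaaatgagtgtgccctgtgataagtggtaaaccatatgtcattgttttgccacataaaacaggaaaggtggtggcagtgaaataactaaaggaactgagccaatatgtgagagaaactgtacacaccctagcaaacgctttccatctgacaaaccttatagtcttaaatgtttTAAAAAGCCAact
Chil3: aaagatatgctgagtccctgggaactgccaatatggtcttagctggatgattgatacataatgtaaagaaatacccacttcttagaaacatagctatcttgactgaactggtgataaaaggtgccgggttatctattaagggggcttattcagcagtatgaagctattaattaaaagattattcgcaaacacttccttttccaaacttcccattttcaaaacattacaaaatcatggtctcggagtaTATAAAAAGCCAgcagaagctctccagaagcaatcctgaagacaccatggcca
Chil4: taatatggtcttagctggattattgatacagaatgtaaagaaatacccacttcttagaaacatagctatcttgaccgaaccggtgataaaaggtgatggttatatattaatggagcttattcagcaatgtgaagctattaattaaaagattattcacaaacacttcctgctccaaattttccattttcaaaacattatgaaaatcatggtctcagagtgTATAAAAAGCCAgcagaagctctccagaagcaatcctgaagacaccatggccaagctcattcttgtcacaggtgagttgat
Chia1: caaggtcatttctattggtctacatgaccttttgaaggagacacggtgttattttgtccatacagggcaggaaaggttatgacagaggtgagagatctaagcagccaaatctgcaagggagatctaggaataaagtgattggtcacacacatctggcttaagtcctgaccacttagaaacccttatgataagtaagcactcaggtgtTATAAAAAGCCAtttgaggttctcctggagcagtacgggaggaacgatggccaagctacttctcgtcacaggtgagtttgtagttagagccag
The common stretch was TAAAAAGCCA, of 10 bases. It was picked out after the sequences were seen and was given no test. Read on the gene's strand, it occurred in 26 of the 32851 windows of the table (0.0791%), these 4 included. It began at position -1 in Chil3, -29 in Chil4 and -41 in Chia1, and at position 38 in Chil5, where the annotated start is position 1 and the base before it is -1. In Chil3, Chil4 and Chia1 the stretch overlapped a TATAAA match at its left end, while the window of Chil5 held no TATAAA on either strand. TATAAA stood in 3 of the 6 family windows, against 13.6% of all windows. These 3 are paralogs with the match in the same shared stretch, so they do not count as independent windows. Chil3 and Chil4 were the closest pair, with 251 of 270 aligned bases equal (93.0%), whereas the best local alignments of Chil5 covered 24 bases with Chil3, 26 with Chil4 and 48 with Chia1. The STAT motif, TTC and GAA with 3 bases of any kind between them, was found in Chil3 and Chil4, 2 of 6 windows against 8.3% of all. The matched bases were the same in both of these closely alike windows, so the 2 matches are not independent. The STAT6 motif, which has 4 bases between TTC and GAA, was found in 0 of 6, against 6.95% of all windows, and the interferon response motif, GAAA repeated after 2 bases of any kind, in 0 of 6, against 3.44%. Each motif was searched on both strands and none of the matches overlapped another of these motifs. A match describes letters in the window and not a binding site.

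By the level of L1cam, the arrays fell on the sides that their labels name. L1cam, the transfected gene, read 10.49, 10.60 and 10.73 on the log2 scale in L1CAM replicates 1, 2 and 3, against 6.50, 6.77 and 7.31 in control replicates 1, 2 and 3. Its probes read the endogenous and the transfected copy together. L1CAM replicate 1 stood apart. Across genes it correlated with the other L1CAM arrays at 0.9948 and 0.9951. The correlation was 0.9986 between L1CAM replicates 2 and 3 and 0.9982 to 0.9986 between control arrays. With control replicates 1, 2 and 3, L1CAM replicate 1 correlated at 0.9952, 0.9935 and 0.9938. It was thus as close to control replicate 1 as to its own group. The differences of the family genes are therefore also given without L1CAM replicate 1. The medians of the 6 arrays lay between 6.55 and 6.58 and serve here as the mark of a dim probe set, since no detection calls were used. All 12 endothelial markers lay above the array median on all 6 arrays, as did 10822 of the 19938 genes. Their median difference was -0.07, against 0.02 over all genes, so small falls were common among them. Of them 1 passed the test, against 15.0% of all genes. It was Cldn5, a tight junction protein, at -0.22 (adjusted p = 0.0446 in limma). That call held in 1 of 6 fits without an array, the one without L1CAM replicate 1. Eng came next by p, at -0.18 (adjusted p = 0.0556), and was lower on all L1CAM arrays than on all control arrays.

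Chil5 was the family gene that differed between the groups. It encodes a chitinase-like protein of the mouse cluster whose function is less well described than that of its neighbours. Its level was 8.54, 8.65 and 8.90 in L1CAM replicates 1, 2 and 3, against 5.81, 6.04 and 5.75 in control replicates 1, 2 and 3 (log2). All L1CAM arrays were high and all control arrays low, with a gap of 2.51 between the lowest L1CAM and the highest control array, against ranges of 0.36 within L1CAM cells and 0.28 within control cells. The group means were 8.70 ± 0.18 in L1CAM cells and 5.87 ± 0.15 in control cells (SD, n = 3 arrays each), a difference of 2.83 (SE 0.11) on the log2 scale, or 7.12-fold. This difference was already known when the family was chosen, so it is a description with no test. L1CAM replicate 1 did not stand apart here, and the difference was 2.91 without it. The L1CAM arrays lay 1.98 to 2.32 above their array medians and the control arrays 0.52 to 0.82 below theirs, so Chil5 was not shown to be above background in control cells and its fold is not exact. By size, its difference ranked 4 of 19938 among rises, after L1cam, Ifi203 and Oasl2. Among the 8432 genes below the array median on all control arrays it ranked 2. Of those 8432 genes, 44 (0.522%) reached the array median on all L1CAM arrays, and Chil5 was 1 of them. The ranks and this share rest on the values for which the family was chosen, so they too are description and no evidence.

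**Figure D1:**
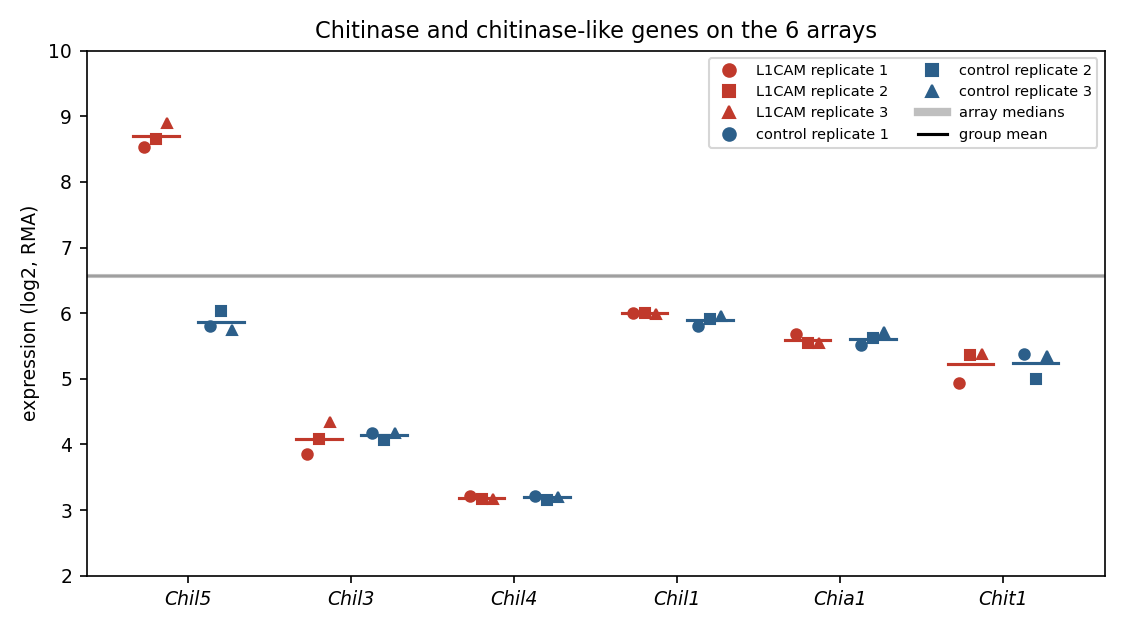
Level of each family gene (log2, vertical axis) in L1CAM cells (red, left of each pair) and control cells (blue, right), 1 symbol per array, with bars at the group means and a grey band at the array medians (6.55 to 6.58). Chil5 lies at 8.54 to 8.90 in L1CAM cells and at 5.75 to 6.04 in control cells, while the other genes stay below the band on all 6 arrays; levels of different genes come from different probes and are not to be set against each other.

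The other chitinase-like genes of the cluster stayed dim in both groups. Chil3, which encodes the macrophage and neutrophil protein Ym1, read 3.85, 4.08 and 4.34 in L1CAM replicates 1, 2 and 3, against 4.17, 4.07 and 4.17 in control replicates 1, 2 and 3. The L1CAM arrays lay on both sides of the control arrays, and the spread was wider in L1CAM cells (SD 0.24) than in control cells (SD 0.06). The difference was -0.05, with a 95% interval of -0.31 to 0.22 (limma adjusted p = 0.84). Without L1CAM replicate 1, the lowest array, it was 0.07 (adjusted p = 0.601). Chil4, which encodes the close relative Ym2, read 3.21, 3.17 and 3.17 in L1CAM cells, against 3.22, 3.16 and 3.20 in control cells. The groups overlapped, and the difference was -0.01 with an interval of -0.13 to 0.11 (adjusted p = 0.898), or -0.03 without L1CAM replicate 1 (adjusted p = 0.772). Chil3 and Chil4 are close paralogs, and Chil5 is a further paralog of the cluster. The probe sets of these genes may also read RNA of the other paralogs, which was not tested. This limit holds for the Chil5 rise as well, which rests on 1 probe set.

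Chil1 was the remaining chitinase-like gene. It encodes the mouse counterpart of human CHI3L1, a secreted protein of injured and inflamed tissue. It read 6.01, 6.01 and 5.99 in L1CAM cells, against 5.81, 5.91 and 5.95 in control cells. The L1CAM arrays all lay above the control arrays, with 0.04 between the lowest L1CAM and the highest control array, and the same order was seen in 18.6% of all genes. The difference of 0.11 did not pass the test (interval -0.03 to 0.24, adjusted p = 0.275), and was 0.10 without L1CAM replicate 1 (adjusted p = 0.296).

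The active enzymes did not pass the test either. Chia1, acidic mammalian chitinase, read 5.68, 5.55 and 5.55 in L1CAM cells, against 5.51, 5.62 and 5.71 in control cells, with overlapping groups and a difference of -0.02 (interval -0.19 to 0.15, adjusted p = 0.897). Without L1CAM replicate 1 the difference was -0.06 (adjusted p = 0.598). Chit1, chitotriosidase, read 4.93, 5.36 and 5.38 in L1CAM cells, against 5.38, 4.99 and 5.35 in control cells. In each group 1 array was lower than the others, L1CAM replicate 1 and control replicate 2, and the difference was -0.01 with the widest interval of the family, -0.36 to 0.33 (adjusted p = 0.968). It was 0.13 without L1CAM replicate 1 (adjusted p = 0.46).

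**Figure D2:**
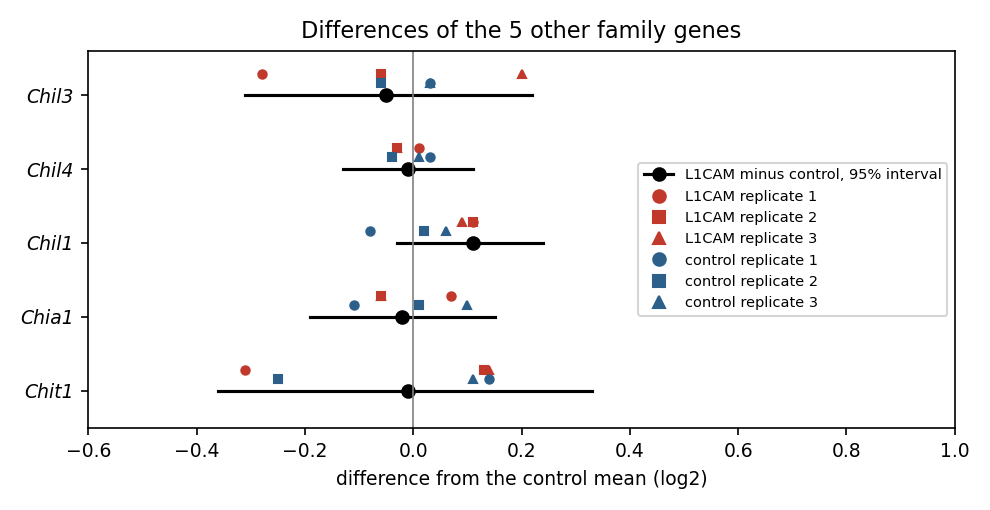
Difference of each of the other 5 family genes from its control mean (log2, horizontal axis): black points and lines are the L1CAM minus control difference with its 95% interval from limma, red symbols the L1CAM arrays and blue symbols the control arrays. Every interval includes 0; that of Chil4 (-0.13 to 0.11) is the narrowest and that of Chit1 (-0.36 to 0.33) the widest.

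Chil3, Chil4, Chil1, Chia1 and Chit1 lay below the array median on all 6 arrays, as did 41.0% of all genes. On such probe sets RMA values may change little with the RNA, and of the 8168 genes that were below the median throughout, 2.56% were called in either direction. The intervals above therefore bound the change in the deposited values and not that in the RNA. In the fit over all genes 1 of the 6 family genes passed the threshold of 0.05, Chil5, against 15.0% of all genes, and nothing is read from this share since the family was chosen with it known.

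Chil5 was set beside its chromosomal neighbours, the 10 nearest measured genes on each side. Of these 20 genes 3 rose and 2 fell, against 6.85% and 8.19% of all genes, and their median difference was 0.02, the same as over all genes. Directly beside Chil5 stood Pifo (0.07, adjusted p = 0.596) and Chia1 (-0.02). The rises were small: Cept1, an enzyme of phospholipid synthesis, by 0.35 (adjusted p = 0.0214), Dram2, a lysosomal membrane protein, by 0.32 (adjusted p = 0.0107) and Wdr77, a partner of the methyltransferase PRMT5, by 0.29 (adjusted p = 0.0416). Kcnd3, a potassium channel subunit, was 2.50-fold lower (-1.32, adjusted p = 0.00071) and Inka2 was at -0.32 (adjusted p = 0.0133). Kcnd3 and Dram2 were called in each of the 6 fits that left out 1 array. Inka2 lost its call without L1CAM replicate 3, control replicate 2 or control replicate 3, and Wdr77 and Cept1 without any array other than L1CAM replicate 1. Next to Chil6, the relatives outside the family list were Ctbs, a lysosomal enzyme that trims the core of N-glycans, and Chid1, a secreted chitinase-like protein. Of these 3 genes 0 were called at an adjusted p under 0.05, against 15.0% of all genes, and so few genes cannot be told from that share. At an unadjusted p under 0.05 there were also 0, a level for which no share over all genes was counted. Chid1 measured 0.16 (adjusted p = 0.228) and Ctbs 0.06 (adjusted p = 0.528). The L1CAM arrays of Chid1 all lay above its control arrays, an order seen in 18.6% of all genes. A probe set named for both Wdr77 and Ovgp1, another relative, was not tested.

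**Figure D3:**
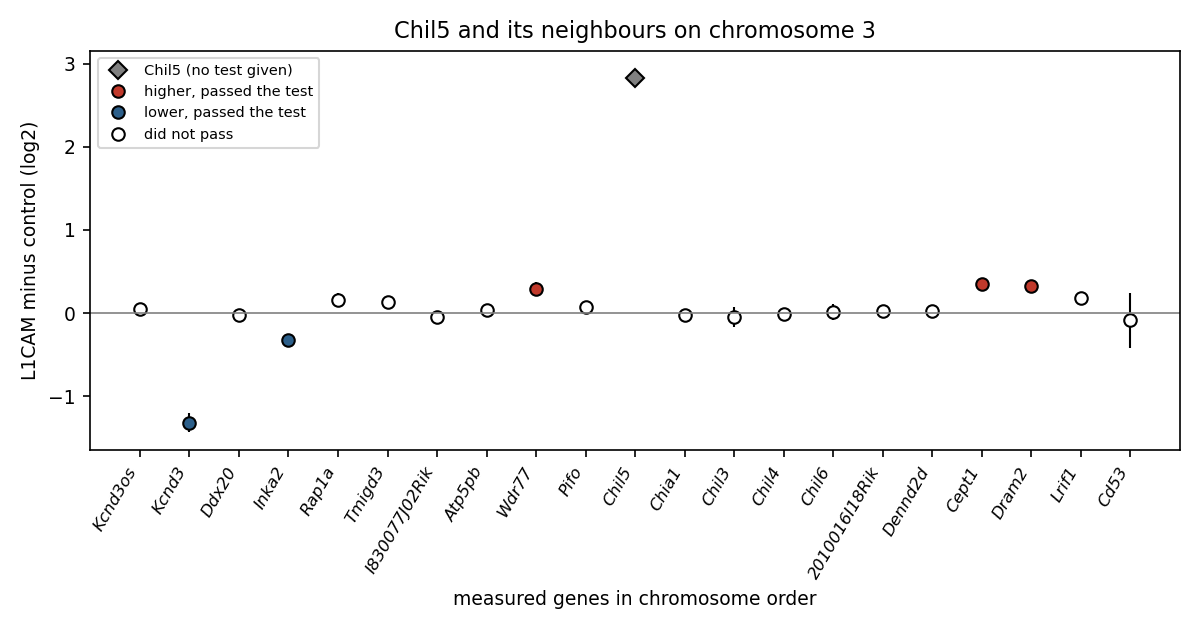
L1CAM minus control difference (log2, vertical axis, bars are the SE) of Chil5 and the 10 nearest measured genes on each side in chromosome order. Chil5 stands at 2.83, its cluster relatives Chia1, Chil3, Chil4 and Chil6 lie between -0.05 and 0.01, and Kcnd3 is the lowest neighbour at -1.32.

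Genes of IL-4 and IL-13 signalling, the pathway known to induce chitinase-like genes in the lung, were lower at the receptors. Of 12 measured genes 4 fell and 0 rose, against 8.19% and 6.85% of all genes, with a list median of 0.00 against 0.02 over all genes. The list was chosen with earlier results of these data known, so these counts are description. Il13ra1, the signalling IL-13 receptor chain, read 5.16, 5.18 and 5.23 in L1CAM cells, against 8.43, 8.67 and 8.43 in control cells. The groups were far apart (difference -3.32, SE 0.08, adjusted p = 4.28e-06), and in L1CAM cells the gene lay below the array median, so its fold is not exact. Il13ra2, the second IL-13 receptor, which in the mouse also binds Chil1, read 8.15, 6.85 and 6.85 in L1CAM cells, against 9.71, 10.11 and 9.84 in control cells. It was lower on all L1CAM arrays (difference -2.60, SE 0.33, adjusted p = 0.00302), least so on L1CAM replicate 1, and -3.03 without that array. Il4ra, the receptor chain shared by IL-4 and IL-13, fell by 0.72 (adjusted p = 0.00121), and Cish, a STAT-induced feedback inhibitor, by 0.38 (adjusted p = 0.0182). Cish lost its call without L1CAM replicate 2, L1CAM replicate 3, control replicate 1 or control replicate 3. Stat6, the transcription factor of the pathway, measured -0.07 (adjusted p = 0.386).

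Genes that accompany chitinase-like proteins in type 2 responses did not pass the test in either direction. Of 15 measured genes, 0 were called in limma, 1 had an unadjusted p under 0.05, and 14 lay below the array median on all 6 arrays, with a list median of 0.05 against 0.02 over all genes. Over all genes 41.0% lay below the median on all 6 arrays, and of such dim genes 2.56% were called, so a count of 0 is near that share. The smallest p values belonged to Clec10a, a macrophage lectin (0.17, adjusted p = 0.102), and Ccl24, an eosinophil chemokine (0.18, adjusted p = 0.219). Clec10a was the gene with an unadjusted p under 0.05, a level for which no share over all genes was counted. It passed the test without L1CAM replicate 1 (adjusted p = 0.0463).

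Genes of proteins reported to bind chitinase-like proteins differed in both directions at the RNA level. Of 10 measured genes 3 rose and 3 fell, against 6.85% and 8.19% of all genes, with a list median of -0.09 against 0.02 over all genes. This list too was chosen with earlier results known, and Il13ra2 is counted here as well as among the IL-4 and IL-13 genes. Cd44, the hyaluronan receptor and a reported CHI3L1 partner, read 8.33, 8.67 and 8.70 in L1CAM cells, against 7.32, 7.44 and 7.61 in control cells, a rise of 1.11 (SE 0.12, adjusted p = 0.00141). Lgals3, galectin-3, a lectin that binds galactosides, rose by 1.04 (SE 0.12, adjusted p = 0.00253). Itgav, the integrin alpha-v chain, fell by 0.66 (adjusted p = 0.00082), and with Il13ra2 and Sdc1, the proteoglycan syndecan-1 (-0.23, adjusted p = 0.0456), made up the falls. Itgb5, an integrin beta chain, rose by 0.39 (adjusted p = 0.0186), with both group means below the array medians. Cd44, Lgals3, Itgav, Il13ra2, Il13ra1 and Il4ra were called in all 6 fits that left out 1 array. Itgb5 lost its call without L1CAM replicates 2 or 3 or control replicates 2 or 3, and Sdc1 without any array other than L1CAM replicate 2. Tmem219, a further IL-13 receptor partner, was not called (adjusted p = 0.425).

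**Figure D4:**
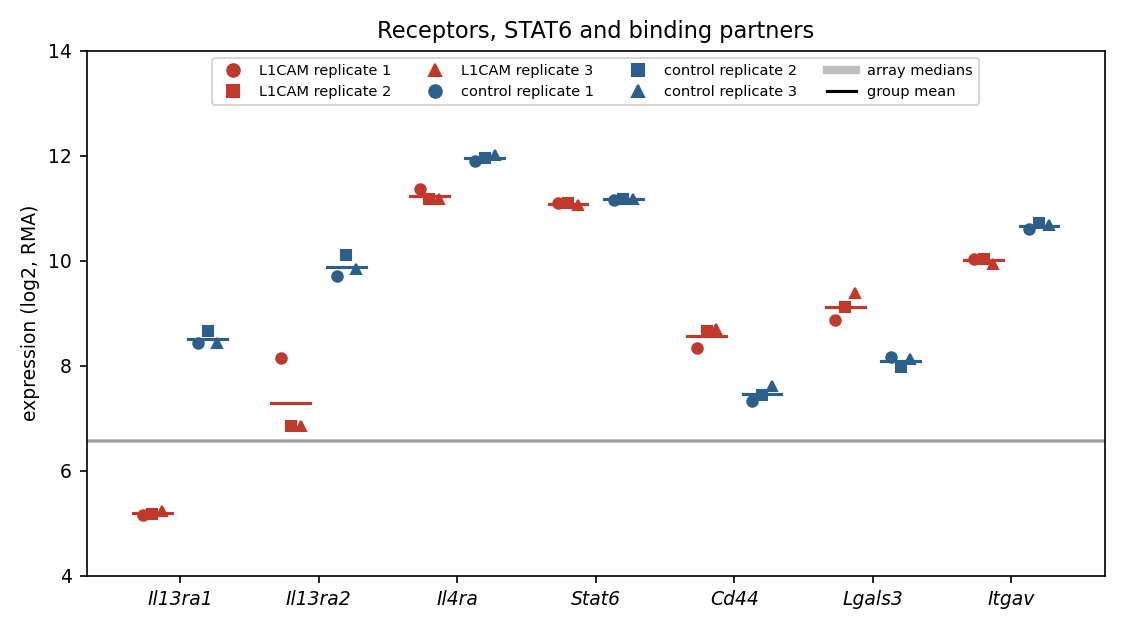
Level (log2, vertical axis) of receptor, STAT6 and binding partner genes in L1CAM cells (red, left of each pair) and control cells (blue, right), 1 symbol per array, bars at group means, grey band at the array medians. Il13ra1 lies at 5.16 to 5.23 in L1CAM cells and 8.43 to 8.67 in control cells, and L1CAM replicate 1 is the highest L1CAM array for Il13ra2, at 8.15.

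Markers of the cell types best known for chitinase-like proteins were counted in the same arrays, where 41.0% of all genes lay below the array median throughout and 15.0% of all genes, but 2.56% of those dim genes, were called. Of 12 macrophage markers 9 lay below the array median on all 6 arrays and 0 were called. Their mean level was 6.18 to 6.29 over the L1CAM arrays and 6.18 to 6.29 over the control arrays. Cd68 and Lyz2 lay above the median throughout, and Lyz2 varied within both groups (SD 0.64 in L1CAM cells and 0.53 in control cells). All 10 neutrophil markers lay below the median on all 6 arrays, with list means of 5.20 to 5.25 in L1CAM cells and 5.22 to 5.26 in control cells, and 0 were called. Of 10 lung epithelial markers 8 lay below it throughout, with list means of 5.89 to 5.99 in L1CAM cells and 5.88 to 5.93 in control cells, and 0 were called. Unadjusted p values under 0.05 were seen for 1 macrophage, 1 neutrophil and 0 epithelial markers, and no share over all genes was counted at that level. They were C1qa (0.14, limma adjusted p = 0.115) and Ly6g (0.22, adjusted p = 0.164), both below the array median on all 6 arrays. The list medians were 0.06 for macrophage and -0.02 for neutrophil markers, against 0.02 over all genes. In bulk RNA, fewer cells of a type and less RNA per cell cannot be told apart.

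The genes whose pattern over the 6 arrays was most like that of Chil5 were taken among the 363 other genes whose log2 difference was 1 or more in either direction. They were Pir, a redox-sensitive nuclear protein (Pearson r = 0.995), Igfbp3, a carrier of insulin-like growth factors (0.9937), Ddah1, which degrades an inhibitor of nitric oxide synthase (0.9933), Sprr1a, a cornified envelope protein (0.9929), and Zbtb7c, a zinc finger protein (0.9914). All of these genes share the step between the groups over the 6 arrays, and no p is given. Their rises ranged from 2.02-fold for Igfbp3 to 2.82-fold for Sprr1a.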

How the data were processed

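Total RNA from 6 cultures was hybridised to Affymetrix arrays. The authors deposited 1 log2 value per probe set and array. The submitters' processing notes name RMA and Affymetrix Expression Console 1.1 for this step, which covers background correction, normalization and summary. Its other settings, and the genome build of the array, were not given in the sources used here. Scanner files were not used here. The table holds 35512 probe sets, of which 21789 had 1 gene symbol, 1621 had several and 12102 had none listed. Entrez identifiers were looked up in the GRCm38.p6 RefSeq table, which changed 0 symbols. Where a gene had several probe sets, that of highest mean level was kept, which left 19938 genes.

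L1CAM and control arrays were compared in limma 3.58.1 (functions lmFit and eBayes, R 4.3.3). The model held the group alone, and the test was two-sided with Benjamini-Hochberg adjustment over all genes and a threshold of 0.05. SE is the moderated standard error and intervals are at 95%. Adjusted p-values come from this fit, except where an alternative or a left-out array is named. The number of arrays limits the precision. On simulated data for this comparison, 19938 genes were drawn with 50 changed at each size. The share recovered was 76% at a log2 change of 0.5, 88% at 1, 100% at 2 and 100% at 4, with 9 false calls. The noise was normal and independent between genes and arrays, so no array stood apart and dim probe sets were not flattened. These shares therefore do not give the power or error rate of the real comparison, least of all for dim genes.

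Members, lists and rules were chosen with earlier results of these data known. Lists cover related genes and cell type markers. Named are L1cam, the members and the 5 genes most like Chil5. Up to 4 called genes per direction are named per list of related genes and among 20 chromosomal neighbours. Where such a list had none, the 2 with the smallest p are named. This rule did not cover the lists of cell type markers. Stat6, Tmem219, Pifo, Cd68, Lyz2, Cldn5, Eng, C1qa and Ly6g were named in addition, after their values were seen. Promoter windows came from RefSeq (GRCm38.p6). All 6 members matched. Alternatives were other normalizations, probe set rules, variance priors, array weights, a replicate block and leaving out each array. Tables used pandas 2.3.3 and numpy 2.4.6 under Python 3.11.15, and plots matplotlib 3.10.9.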

Additional observations from a re-analysis of the deposited data

How the results depend on the processing

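The difference of Chil5 kept its direction and lay between 2.73 and 2.92 under the 16 alternatives, also when each array was left out in turn (2.73 to 2.92). The probe set rules, the filter, the variance priors, the ordinary linear model and the replicate block could not change this difference. The 1 member called under each alternative was Chil5. Nothing is read from these calls, since the family was chosen with that difference known. Chil5 passed the filter on dim probe sets only through its L1CAM arrays. Chil1 stayed between 0.07 and 0.14 and Chil4 between -0.03 and -0.0008. None of the members other than Chil5 was called in any alternative, with adjusted p from 0.22 to 0.996. Differences near 0 changed sign. With array weights Chil3 measured 0.07 and Chit1 0.10. Without single arrays the sign changed for Chil3 (-0.17 to 0.07), Chia1 (-0.07 to 0.03) and Chit1 (-0.14 to 0.13). Chil3, Chil4, Chil1, Chia1 and Chit1 could not be fitted with the filter on dim probe sets, which removes them. The number of genes called was 2999, but 581 with an ordinary linear model, 5191 with array weights, and 1033 to 4952 without single arrays: leaving out control replicates 1, 2 and 3 in turn gave 1809, 1033 and 1064, and leaving out L1CAM replicates 1, 2 and 3 gave 4952, 1366 and 1238. The cause was not tested. With the replicate block 2067 genes were called. No pairing by replicate number was seen. Same-numbered arrays deviated from their group means with correlations of -0.10, -0.10 and -0.03 across genes, and L1CAM replicate 1 went best with control replicate 2 (0.12). With 3 arrays per group these correlations depend on each other, so they cannot settle whether same-numbered arrays were matched. Wdr77, Itgb5, Sdc1 and Cldn5 lost their calls under the block. In the ordinary linear model 1 of the 6 called binding partners, 2 of the 4 called IL-4 and IL-13 genes and 1 of the 5 called neighbours were called. Searching only the 250 bases before the start gave TATAAA in 2 of 6 family windows in place of 3 (12.4% of all windows). Detection calls were not used here, which limits all statements on dim genes.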

Other observations

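Some dim probe sets carry the same value on 2 arrays. Chil1 read exactly the same in L1CAM replicates 1 and 2 (6.01), and Chil3 in control replicates 1 and 3 (4.17), to every deposited decimal. Such equal values on at least 2 of the 6 arrays occurred in 241 of the 19938 genes (1.21%). They occurred in 2.52% of the 8168 genes below the array median on all 6 arrays and in 0.222% of the 10822 genes above it on all 6. The small SD of Chil1 in L1CAM cells (0.01) includes such a pair.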
